A study of Mus musculus with 4 samples.

Results

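The CXXC zinc finger binds DNA that carries unmethylated CpG dinucleotides, and KDM2B, whose CXXC finger was removed in these mice, is one of a small family of proteins that have it. The chromatin at the other genes of the family was examined here: Kdm2a, Fbxl19, Cxxc1, Cxxc4, Cxxc5, Kmt2a, Kmt2b, Tet1, Tet3 and Dnmt1. These 10 genes, of 21938 protein-coding genes in the GENCODE annotation, were listed by name for their CXXC finger, and the rule used no measured value. For each gene, a promoter peak was a peak of the assay for transposase-accessible chromatin with sequencing (ATAC-seq) whose summit lay within 2 kb of a transcription start site (TSS), and peaks in the gene and the 20 kb on either side were also collected.

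ATAC-seq marks open chromatin by the places where Tn5 transposase inserts adapters into nuclei. Hippocampi were taken on postnatal day 0 from 2 cKO and 2 Ctrl samples. The cKO genotype was labelled Kdm2bEmx1-delta-CxxC: the exon for the CxxC finger was deleted by Emx1-Cre, whose activity is limited to the dorsal telencephalon and leaves some cell types of the hippocampus untouched. Ctrl was labelled Kdm2bfl/+ or Kdm2bfl/fl, without saying which library had which, so each Ctrl animal carried at least 1 floxed allele. The source field names neural progenitor cells, whereas titles and protocol name hippocampus. Since nothing says that the 2 samples of a group came from separate animals, the p-values below measure only the spread between these samples. The libraries are called Ctrl1 and Ctrl2 (Ctrl replicates 1 and 2) and cKO1 and cKO2 (cKO replicates 1 and 2).

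CXXC proteins read CpG islands (CGIs), the CpG-rich stretches at many promoters, and bring different enzymes to them. KDM2A, the closest relative of KDM2B, removes methyl groups from histone H3 lysine 36, and FBXL19 is the F-box member of that branch without a demethylase domain. CXXC1, KMT2A and KMT2B belong to complexes that methylate histone H3 lysine 4, the mark of active promoters. TET1 and TET3 oxidise methylated cytosine, whereas DNMT1 copies DNA methylation to the new strand after replication. CXXC4 and CXXC5 are small proteins that bind Dishevelled and restrain Wnt signaling.

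The CpG dinucleotides that a CXXC finger could bind are part of the genes' own promoters, so 7 stretches that the results turn on are shown. They read 5′ to 3′ on the strand of the gene, and capitals mark each CG, a motif that reads the same on both strands. A match is a description of the letters and not of a bound site. Promoter stretches named RefSeq are the 250 bases before a TSS in the RefSeq promoter set (GRCm38.p6), which held 6 of the 10 genes (Fbxl19, Cxxc4, Kmt2a, Tet1, Tet3 and Dnmt1), and the others are GRCm38.p6 sequence within a peak. Over all 32851 promoters of that set the median was 6 CG.

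The Kdm2a stretch, part of the promoter peak that 3 libraries share, is the richest in CG of those shown, with 36 in 250 bases. The RefSeq promoter of Kmt2a had 29, a number that 6.78% of the set reached. Both Fbxl19 stretches are RefSeq promoters of that gene: the first, with 12 CG (reached by 33.5% of the set), overlapped a peak in all 4 libraries, and the second, further into the gene with 14 CG (29.4%), overlapped none.
Kdm2a promoter peak, chr19:4397081-4397330, minus strand: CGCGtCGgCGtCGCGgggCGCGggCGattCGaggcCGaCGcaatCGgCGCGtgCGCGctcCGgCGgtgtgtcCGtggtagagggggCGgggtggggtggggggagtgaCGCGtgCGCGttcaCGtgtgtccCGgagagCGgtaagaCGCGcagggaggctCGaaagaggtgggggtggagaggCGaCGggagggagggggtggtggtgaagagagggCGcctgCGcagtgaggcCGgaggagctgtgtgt
Kmt2a RefSeq promoter, chr9:44881290-44881539, minus strand: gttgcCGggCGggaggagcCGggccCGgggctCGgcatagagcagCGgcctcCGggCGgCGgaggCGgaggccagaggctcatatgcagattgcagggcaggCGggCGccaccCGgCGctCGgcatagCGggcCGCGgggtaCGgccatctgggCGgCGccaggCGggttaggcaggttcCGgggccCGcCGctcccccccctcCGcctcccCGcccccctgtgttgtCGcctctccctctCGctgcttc
Fbxl19 first RefSeq promoter, chr7:127746028-127746277, plus strand: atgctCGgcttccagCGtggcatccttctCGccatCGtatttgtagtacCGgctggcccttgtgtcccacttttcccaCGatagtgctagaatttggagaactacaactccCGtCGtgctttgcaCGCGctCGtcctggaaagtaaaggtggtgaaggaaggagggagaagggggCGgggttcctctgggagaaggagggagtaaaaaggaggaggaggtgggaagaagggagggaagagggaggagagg
Fbxl19 second RefSeq promoter, chr7:127746525-127746774, plus strand: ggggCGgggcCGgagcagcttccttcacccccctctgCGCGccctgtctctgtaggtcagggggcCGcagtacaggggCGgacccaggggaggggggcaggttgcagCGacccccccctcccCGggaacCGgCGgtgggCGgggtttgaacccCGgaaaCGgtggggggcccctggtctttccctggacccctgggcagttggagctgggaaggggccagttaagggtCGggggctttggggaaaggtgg

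The TET genes are shown because they had a promoter peak in fewer libraries than the other genes. The Tet3 RefSeq promoter had 17 CG (reached by 23.5% of the set) and overlapped a peak in Ctrl1 and cKO2. The Tet1 RefSeq promoter had 15 CG (27.3%) and overlapped a peak in Ctrl1 alone. The peak inside Tet1 that 3 libraries share had 2 CG in the 178 bases shown.
Tet3 RefSeq promoter, chr6:83441679-83441928, minus strand: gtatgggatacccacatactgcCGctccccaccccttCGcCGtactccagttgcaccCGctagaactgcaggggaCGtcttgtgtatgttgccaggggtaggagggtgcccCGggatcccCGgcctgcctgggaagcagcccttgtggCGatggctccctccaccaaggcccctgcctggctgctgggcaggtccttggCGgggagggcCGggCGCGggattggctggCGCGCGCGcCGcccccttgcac
Tet1 RefSeq promoter, chr10:62887325-62887574, minus strand: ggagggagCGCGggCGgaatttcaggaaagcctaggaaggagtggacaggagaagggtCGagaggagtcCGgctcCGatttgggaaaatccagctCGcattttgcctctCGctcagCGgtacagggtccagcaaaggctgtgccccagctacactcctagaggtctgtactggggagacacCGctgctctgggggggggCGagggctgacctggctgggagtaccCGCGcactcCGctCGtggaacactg
Tet1 internal peak, chr10:62865306-62865483, minus strand: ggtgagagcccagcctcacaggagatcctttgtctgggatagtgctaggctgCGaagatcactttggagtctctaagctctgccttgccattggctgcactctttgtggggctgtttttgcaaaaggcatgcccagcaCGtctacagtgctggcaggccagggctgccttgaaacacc

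The 4 libraries differed widely, and this touches each result below. Peaks numbered 46389 for Ctrl1, 7037 for Ctrl2, 21404 for cKO1 and 44535 for cKO2. The mean depth of the genome, read from the lowest background of each list, was 1.62 to 3.46 fragments, with the most in Ctrl2. Of the protein-coding genes, 58.0%, 8.27%, 40.3% and 55.9% had a promoter peak in that order. At least 50% of the bases were repeat-masked in 60.6% of the peaks of Ctrl2 and in 5.37 to 14.7% of those of the other libraries. Exon 13 of Kdm2b, the targeted gene, overlapped 0 peaks in every list, so the lists do not check the deletion. Markers of hippocampus and dorsal telencephalon had a promoter peak for 9, 0, 6 and 9 of 10 genes, and the absent one outside Ctrl2 was in each case Bcl11b, joined in cKO1 by Emx1, Zbtb20 and Prox1. Interneuron markers had one for 3, 0, 1 and 2 of 5 genes, oligodendrocyte lineage markers for 2, 0, 0 and 1 of 4, microglia markers for 1, 0, 0 and 1 of 5, choroid plexus markers for 2, 0, 2 and 2 of 3, and endothelial markers and genes of other tissues for 0 in every library. The part that these differences between libraries have in the results below was not tested. In bulk tissue, fewer cells with an open site and a less open site in each cell cannot be told apart.

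Outside Ctrl2, most promoters of the CXXC genes had a peak, as did most CGI promoters. Ctrl1 had a promoter peak for 9 of the 10 genes, Ctrl2 for 2, cKO1 for 8 and cKO2 for 9. Of the 12661 genes with a CGI within 2 kb of a TSS, 87.2%, 13.5%, 63.5% and 84.9% had one in the same order. To compare lists of unequal length, the strongest promoter peak of each gene by its −log10 p-value was ranked within its library. The promoter percentile is the percentage of protein-coding genes with a weaker strongest promoter peak, set at 0 for a gene with no promoter peak. The median percentile of the 10 genes was 80.7 in Ctrl1, 82.7 in cKO1 and 83.4 in cKO2, and it was 0 in Ctrl2. Their mean percentile was 71.2, 19.3, 67.0 and 71.4 in the order of the libraries above. The corresponding means over all protein-coding genes were 41.2, 7.93, 32.1 and 40.2, and those over the CGI genes were 63.1, 12.9, 51.0 and 62.2. A CGI lay within 2 kb of a TSS of the basic annotation at 9 of the 10 members, Tet1 being the exception, so the means of CGI genes are the closer background.

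**Figure D1:**
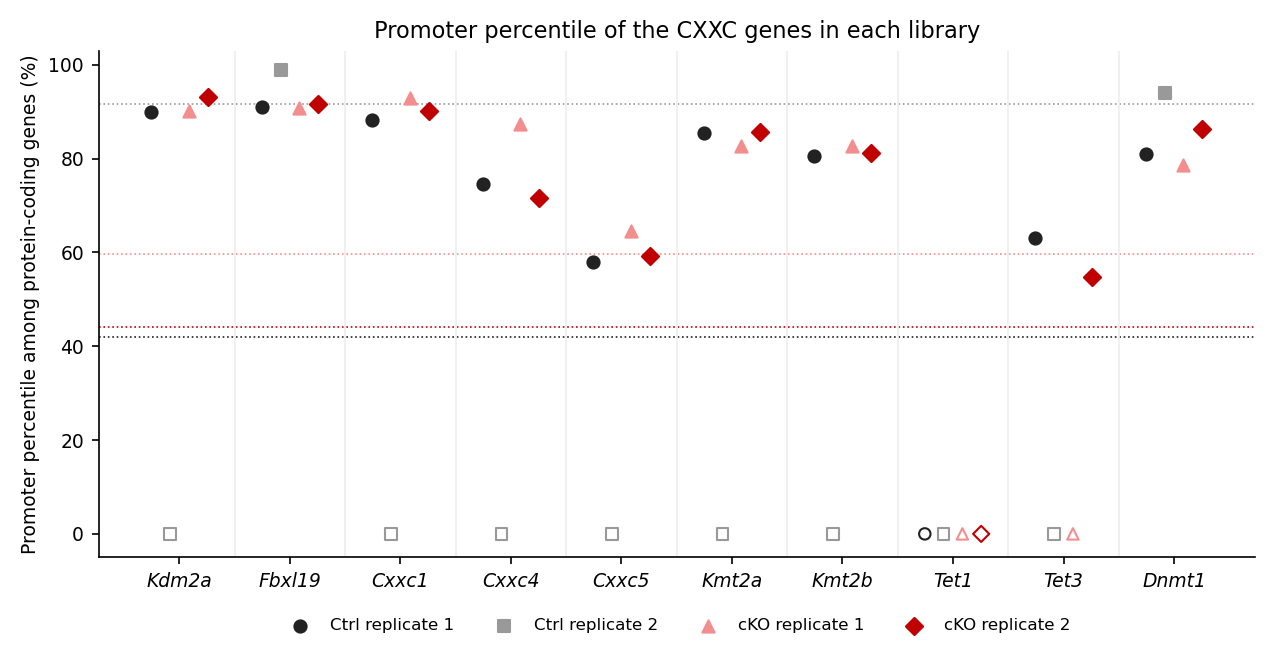
Promoter percentile (vertical axis, percent of protein-coding genes with a weaker promoter peak) of each gene in each of the 4 libraries. Filled symbols mark a gene with a promoter peak, open symbols at 0 a gene without, and dotted lines the floor among genes with a peak in that library (42.0, 91.7, 59.7 and 44.1 in the order of the legend). Fbxl19 and Dnmt1 alone have a filled symbol in Ctrl2, and Tet1 has none.

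The genes fell into an order that the 3 libraries other than Ctrl2 largely shared. Fbxl19 (91.2 ± 0.457), Kdm2a (91.1 ± 1.79) and Cxxc1 (90.4 ± 2.42; mean percentile ± SD, n = 3 libraries of both genotypes) stood at the top and did not differ from each other beyond their spread. Kmt2a (84.6 ± 1.70), Dnmt1 (82.0 ± 3.91), Kmt2b (81.5 ± 1.20) and Cxxc4 (77.9 ± 8.37) followed, each within the spread of its neighbour. Cxxc5 (60.6 ± 3.48) lay lower than Cxxc4 by more than either SD. Tet3 averaged 39.3 ± 34.3 because it had no peak in cKO1, and Tet1 was at 0.

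Kdm2a (ENSMUSG00000054611, mm10 chr19:4314419-4398285, minus strand), the paralogue of the targeted gene, had a promoter peak in 3 libraries. Its percentile was 90.0 in Ctrl1, 90.2 in cKO1 and 93.2 in cKO2, with no peak in Ctrl2. The summits lay 37, 61 and 112 bp upstream of the TSS at position 4397080, inside a CGI of 2050 bp with 202 CG. Both cKO values were above both Ctrl values, by 0.205 and 3.20 over Ctrl1. The cKO mean was 91.7 ± 2.11 and the Ctrl mean 45.0 ± 63.6 (SD, n = 2 each), and the difference of 46.7 was smaller than the SD of Ctrl (exact permutation test, two-sided, p = 0.333, the smallest that the 6 assignments of 4 libraries allow; Benjamini-Hochberg p over the 10 genes 0.833).

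By depth, neither cKO peak was above that of Ctrl1. Scaled depth is the number of fragments at the summit, recovered from the fold enrichment and p-value, divided by the genome-wide mean depth of that library. At the Kdm2a promoter it was 51.8 in Ctrl1 (84 fragments, 95% exact Poisson interval 41.3 to 64.1), 17.8 in cKO1 (37 fragments, 12.6 to 24.6) and 50.9 in cKO2 (92 fragments, 41.1 to 62.5). Ctrl1 and cKO2 thus agreed within counting error, and cKO1 lay below both. These intervals cover counting error only. A low depth in cKO1 was found across the genome: over the 8734 genes with a promoter peak in the 3 libraries, the depth in cKO1 was 37.0% of that in Ctrl1 (median, quartiles 31.8 to 43.7%), against 34.4% for Kdm2a.

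Fbxl19 (ENSMUSG00000030811, chr7:127745201-127769483, plus strand) had a promoter peak in all 4 libraries. Its percentile was 90.9 in Ctrl1, 98.9 in Ctrl2, 90.9 in cKO1 and 91.7 in cKO2, and the groups overlapped. The scaled depth was 67.2 (109 fragments), 9.81 (34), 24.1 (50) and 61.4 (111) in the same order. Ctrl2 had the highest percentile at the lowest depth, and any gene with a peak there stood at 91.7 or higher. The cKO mean was 91.3 ± 0.564 and the Ctrl mean 94.9 ± 5.65 (n = 2 each, exact permutation p = 0.667). The difference of −3.61 turned to 5.44 with percentiles among all peaks, 4.27 in scaled depth and 0.385 without Ctrl2.

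The Fbxl19 peak sat at only part of the gene's start sites. Its summit moved between 188 bp upstream and 332 bp downstream of the TSS at position 127745786, within a peak 749 to 1097 bp wide. A small CGI of 306 bp there overlapped a peak in all 4 libraries. The larger CGI (651 bp, 58 CG) at the TSS at position 127746775, which holds the second stretch printed above, overlapped none. The TSSs at positions 127748147 and 127748274, further into the gene, had no peak summit within 2 kb.

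**Figure D2:**
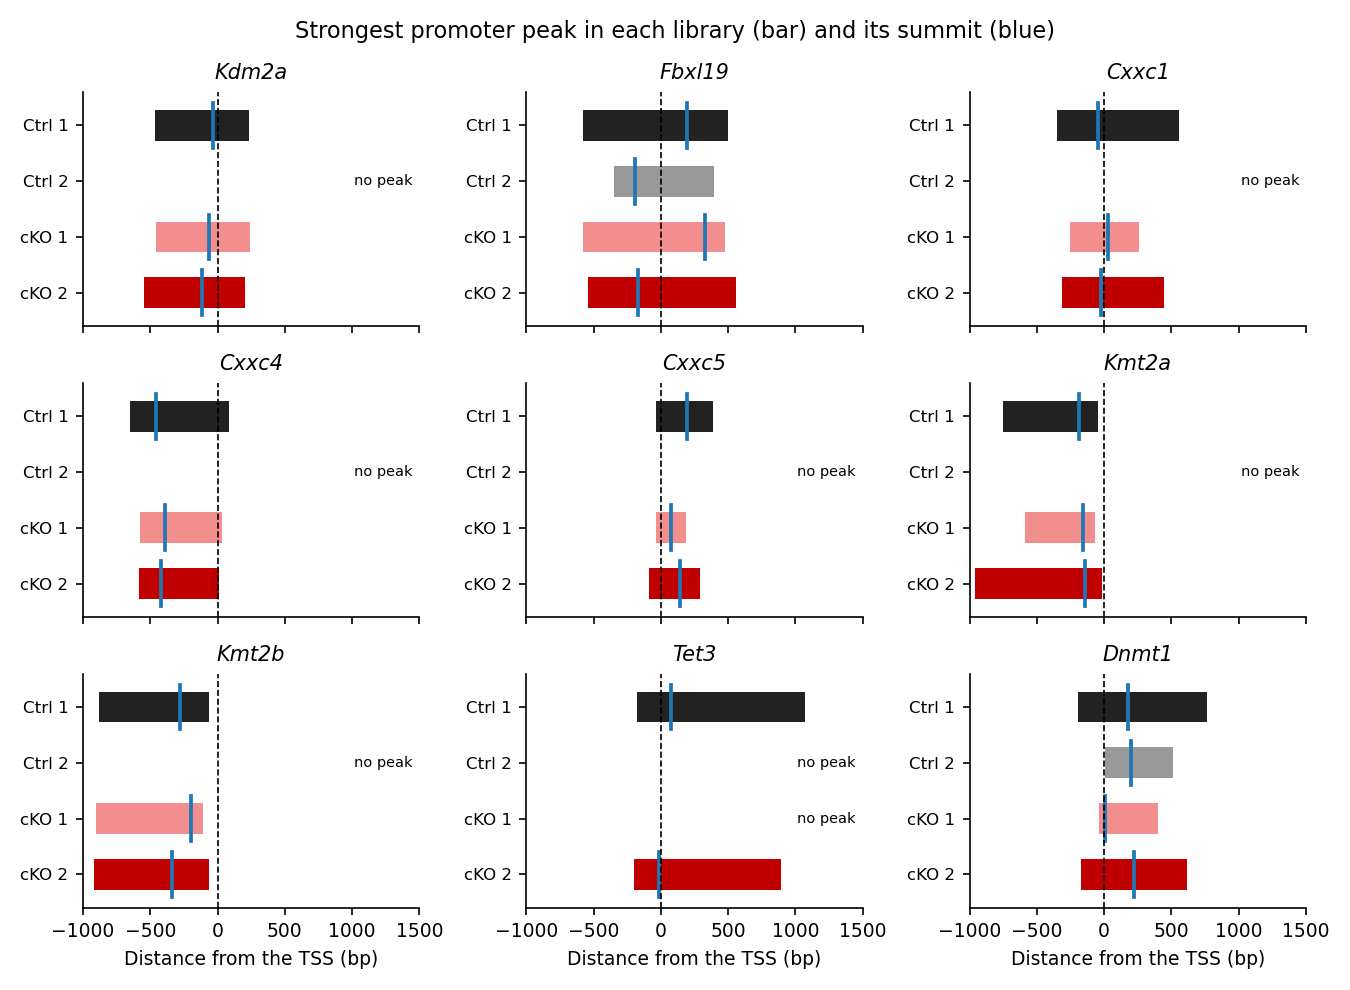
Extent (bar) and summit (blue line) of the strongest promoter peak of 9 genes, as the distance in bp from the TSS nearest to the summit in Ctrl1 (dashed line; negative values are upstream). Kmt2a and Kmt2b peaks lie wholly upstream of the TSS and those of Cxxc5 across it. The Cxxc4 summits, 393 to 459 bp upstream, stand furthest out.

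The genes of the histone H3 lysine 4 methyltransferase complexes had peaks at their start sites in the same 3 libraries. Cxxc1 (ENSMUSG00000024560, chr18:74216131-74221493, plus strand), which encodes the CpG-binding subunit of the SETD1 complexes, was at 88.1 in Ctrl1, 92.9 in cKO1 and 90.1 in cKO2. Its summits lay 44 bp upstream, 26 bp downstream and 19 bp upstream of its TSS. Both cKO percentiles were above both Ctrl percentiles (difference of means 47.5, exact permutation p = 0.333, adjusted 0.833), with no peak in Ctrl2. The scaled depths of 43.8, 19.8 and 41.5 put cKO1 lowest again.

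Kmt2a (ENSMUSG00000002028, chr9:44803355-44881296, minus strand), the MLL1 gene, was at 85.6 in Ctrl1, 82.7 in cKO1 and 85.6 in cKO2, so cKO lay on both sides of Ctrl1 (exact permutation p = 0.667). The scaled depths were 48.7, 14.5 and 41.0. The summits stood 184, 155 and 138 bp upstream of the TSS, and 270 to 316 bp from the TSS of the antisense gene AC061963.1, which cannot be told apart from Kmt2a in a shared open region. A weaker peak further upstream (1837 and 1895 bp) was found in Ctrl1 and cKO2.

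Kmt2b (ENSMUSG00000006307, chr7:30568858-30588726, minus strand), the MLL2 gene, was at 80.5 in Ctrl1, 82.8 in cKO1 and 81.1 in cKO2. The cKO values were above both Ctrl values, by 2.33 and 0.670 over Ctrl1 (difference of means 41.7, exact permutation p = 0.333, adjusted 0.833). The scaled depths were 34.5, 14.5 and 33.8. The summits lay 196 to 339 bp upstream of the TSS at position 30588726, in a CGI of 1292 bp. Mir3569, a miRNA gene on the opposite strand, starts 654 bp from that TSS. The summits lay 378, 458 and 315 bp from its start in Ctrl1, cKO1 and cKO2, so the shared open region cannot be assigned to either gene.

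Cxxc4 and Cxxc5, which encode the Wnt inhibitors of the family, differed from each other in level. Cxxc4 (ENSMUSG00000044365, chr3:134236491-134262161, plus strand) was at 74.7 in Ctrl1, 87.4 in cKO1 and 71.7 in cKO2. The cKO libraries thus lay 12.7 above and 3.03 below Ctrl1, and the groups overlapped (exact permutation p = 0.667). Its summits stood 393 to 459 bp upstream of the TSS at position 134236491, further out than the strongest promoter peak of any other gene of the family, in a CGI of 340 bp that does not reach the TSS. The depth at cKO1 was 49.5% of that in Ctrl1, the largest share among the 8 genes with a peak in the 3 libraries (range 29.7 to 49.5%). At cKO2 it was 75.1%, the smallest share among the same 8 genes (range 75.1 to 104%).

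Cxxc5 (ENSMUSG00000046668, chr18:35829788-35861688, plus strand) had a weaker promoter peak. The summits lay 74 to 194 bp downstream of its TSS. They also lay within 2 kb of the TSS of the antisense gene Gm29417, at 1111 to 1231 bp. Cxxc5 was at 58.0 in Ctrl1, 64.5 in cKO1 and 59.2 in cKO2, with no peak in Ctrl2 (difference of means 32.8, exact permutation p = 0.333, adjusted 0.833). Both cKO values were above both Ctrl values. The difference was 0.58 at a −log10 q of at least 5, 0 in lists of equal size and 8.92 with percentiles among all peaks. Among all peaks the promoter peak stood at 61.9 in Ctrl1, 23.5 in cKO1 and 56.2 in cKO2, so both cKO values lay below Ctrl1. In cKO1 the lowest percentile of a gene with a peak was 59.7, against 42.0 in Ctrl1, and the peak rested on 16 fragments there against 27 in each of the other libraries. The scaled depths were 16.6 (95% interval 11.0 to 24.2), 7.71 (4.41 to 12.5) and 14.9 (9.85 to 21.7). The depth in cKO1 was 46.3% of that in Ctrl1. The intervals overlap, which does not show that the depths are equal.

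The genes for enzymes of DNA methylation differed from one another in the libraries that gave them a promoter peak. Dnmt1 (ENSMUSG00000004099, chr9:20907209-20959888, minus strand) had a promoter peak in all 4 libraries, at 81.0 in Ctrl1, 94.0 in Ctrl2, 78.6 in cKO1 and 86.3 in cKO2. The groups overlapped (cKO mean 82.4 ± 5.41, Ctrl mean 87.5 ± 9.19, n = 2 each, exact permutation p = 0.667). The difference of −5.08 turned to 41.9 at a −log10 q of at least 5, where the peak of Ctrl2 was lost, to 17.5 with percentiles among all peaks, 3.76 in scaled depth and 1.42 without Ctrl2. In lists of equal size the peak of cKO1 was lost. The scaled depth was 35.8 (58 fragments), 4.91 (17), 11.1 (23) and 37.1 (67). In Ctrl2 this was 13.7% of the depth in Ctrl1, against a median of 9.60% over the 1760 genes with a promoter peak in all 4 libraries. The summits lay between the TSSs at positions 20952623 and 20952979, around a CGI of 448 bp, and the upstream TSS at 20959888, where 2 CG lay in 300 bases, had no peak.

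Tet3 (ENSMUSG00000034832, chr6:83362373-83456392, minus strand) had promoter peaks in Ctrl1 and cKO2 only. Its percentile was 63.2 in Ctrl1 and 54.8 in cKO2 (cKO mean 27.4 ± 38.7, Ctrl mean 31.6 ± 44.7, n = 2 each, exact permutation p = 1). The scaled depth was 23.4 (38 fragments, 16.6 to 32.2) and 13.8 (25 fragments, 8.96 to 20.4). The depth in cKO2 was 59.1% of that in Ctrl1. These intervals overlap, which does not show equal depth. Both start sites of the basic annotation had a peak in both of these libraries. The summits at the main one lay 154 and 64 bp from the TSS of B230319C09Rik, a transcript on the opposite strand that starts 80 bp from that of Tet3, and the shared open region cannot be assigned to either gene. At the upstream one, position 83456392, with 46 CG in 300 bases, the peaks rested on 18 and 17 fragments, fewer than at the other, position 83441675. In cKO1 the shallowest peak of the whole list rested on 9 fragments, so an opening below that depth was not detectable there. The limit at the Tet3 promoter may be higher, since peaks were called against local background. The whole Tet3 locus, 20 kb on either side included, held 6 peaks in Ctrl1, 6 in cKO2 and 0 in the other libraries.

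Tet1 (ENSMUSG00000047146, chr10:62804570-62899118, minus strand) had no promoter peak in any library at the 2 TSSs of the basic annotation, each with 5 CG in 300 bases. It did have peaks inside the gene. The strongest, in an intron, was found in Ctrl1 (46 fragments, scaled depth 28.4), cKO1 (20 fragments, 9.64) and cKO2 (55 fragments, 30.4). Its summits lay 67, 80 and 109 bp upstream of the TSS at position 62865304, that of a processed transcript that is part of the comprehensive annotation but not of the basic set. With all annotated transcripts counted, the percentile of Tet1 was 72.9 in Ctrl1, 0 in Ctrl2, 74.0 in cKO1 and 80.5 in cKO2. Weak peaks, on 13 and 11 fragments, lay near the RefSeq start site and its CGI (561 bp, 46 CG) in Ctrl1 alone. A protein-coding transcript of the comprehensive annotation, outside the basic set, also starts there (position 62887324).

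**Figure D3:**
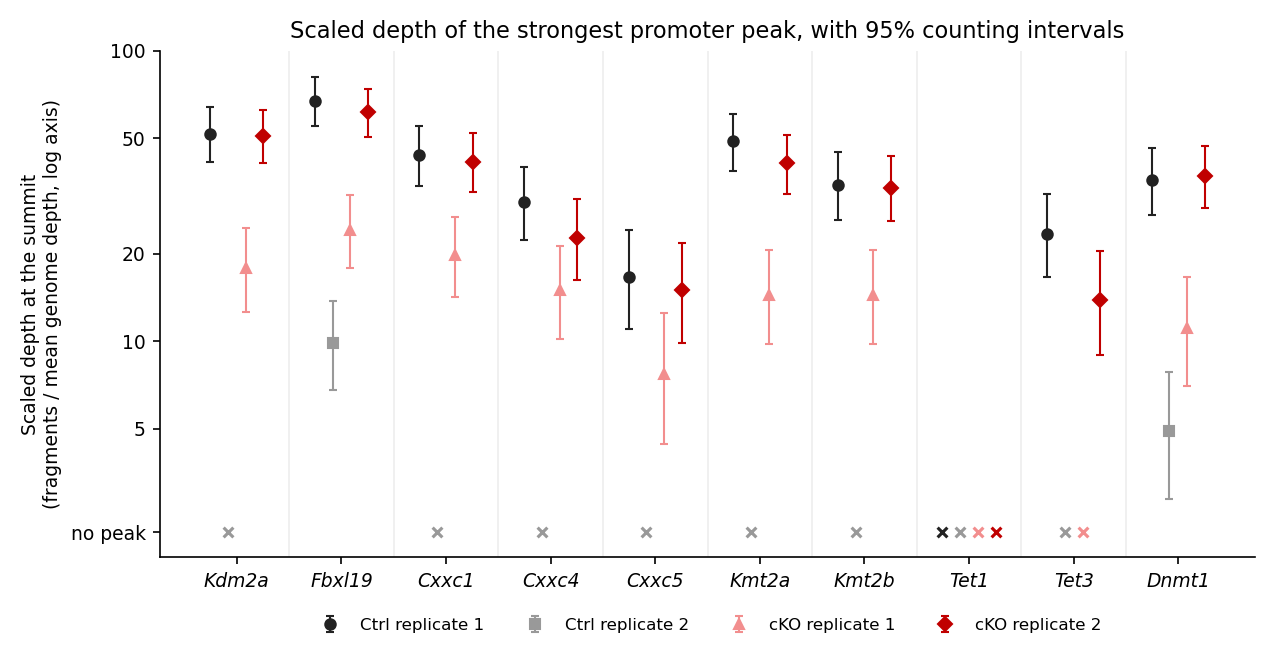
Scaled depth at the summit of the strongest promoter peak (fragments over the mean depth of the genome, log axis) with 95% exact Poisson intervals, for each gene and library. Crosses mark genes without a promoter peak. In each gene with peaks in the 3 libraries, cKO1 lies below Ctrl1 and cKO2, which overlap.

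The comparison of cKO with Ctrl was then read over the family. Of the 9 genes with a promoter peak in any library, 4 (Kdm2a, Cxxc1, Cxxc5 and Kmt2b) had both cKO percentiles above both Ctrl percentiles, and 0 had both below. Among 13196 coding genes that any library gave a promoter peak, 20.5% lay above and 2.8% below. In each of the 4 genes the Ctrl minimum was the 0 of Ctrl2. Set against Ctrl1 alone, the same 4 genes lay above and Tet3 lay below, where the shares over all genes were 23.8% and 36.6%. No gene of the family reached a lower p than 0.333 in the exact permutation test. With percentiles taken among all peaks of each list, the count of 4 genes became 0.

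By scaled depth, 0 of the 9 genes had both cKO libraries above both Ctrl libraries, and 0 below, against 0.28% and 0.0379% of all genes. Against Ctrl1 alone, 0 lay above (0.319% of all genes) and 8 lay below (78.4%), with Dnmt1 on both sides. In these counts a library without a promoter peak was given a depth of 0. The 8 thus include Tet3, which had no measured depth in cKO1, and the 78.4% likewise includes genes without a peak in a cKO library. The 8 genes with a peak in the 3 libraries had a median of 38.9% of the depth of Ctrl1 in cKO1 and 93.1% in cKO2. All 8734 such genes had medians of 37.0% and 84.0%. Relative to the median of these 8734 genes in each library, the depth of Kdm2a was 1.62 times in Ctrl1, 1.54 times in cKO1 and 1.88 times in cKO2, and that of Cxxc1 was 1.37, 1.71 and 1.53 times. On this scale, read for 8 members and all 8734 genes, both cKO libraries were above Ctrl1 for Cxxc1, Cxxc5 and Kmt2b (32.7% of all genes), both were below it for Kmt2a (30.1%), and they lay on both sides of it for Kdm2a, Fbxl19, Cxxc4 and Dnmt1. Relative to the median of all genes with a promoter peak in each library, a scaling chosen after seeing the data, 0 of the 8 members lay above (9.75% of all genes) and Kmt2a alone lay below (48.7%).

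The mean percentile over the 10 genes was 69.2 ± 3.08 in cKO and 45.2 ± 36.7 in Ctrl (SD, n = 2 each). The difference of 23.9 was smaller than the SD of Ctrl, and it was 18.6 over the CGI genes and 11.6 over all protein-coding genes. It was 13.6 in lists of equal size and 8.64 when genes lacking a peak shared a mid-rank in place of 0. Without Ctrl2 it was −2.01 for the family, −6.55 for the CGI genes and −4.99 for all protein-coding genes.

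Most of the TSSs with a peak were rich in CG. For the TSSs of the basic annotation, CG was counted in the 300 bases from 250 before to 50 after. The 23 TSSs of the family had a median of 25 CG, against 13 over the 41525 TSSs of protein-coding genes. The RefSeq start site of Tet1 is not among them. The 18 TSSs with a peak summit within 2 kb in any library had a median of 32 CG (range 5 to 46), and 14 of them lay in a CGI. The other 5, which belong to Tet1, Fbxl19 and Dnmt1, had a median of 5 CG (range 2 to 15) and lay in none. The same held across the genome: 24592 TSSs of protein-coding genes with a peak had a median of 21 CG, with 69.5% in a CGI, and 16933 without had a median of 3, with 8.21% in a CGI. TSSs of a gene that stand close together share bases and peaks, so they are not independent.

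**Figure D4:**
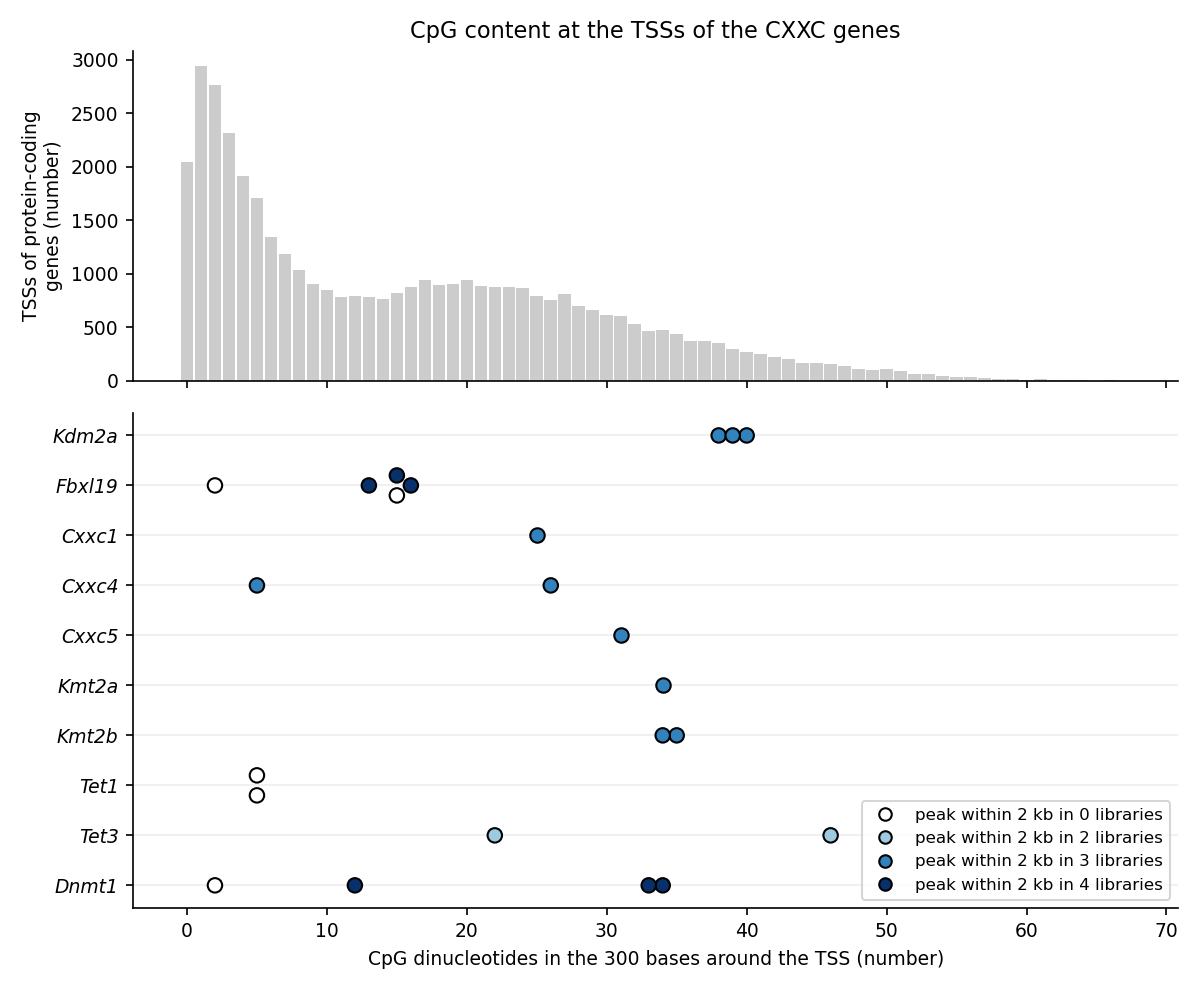
Number of CG dinucleotides in the 300 bases around each TSS. The upper panel counts all TSSs of protein-coding genes, and the lower panel shows each TSS of the 10 genes, filled by the number of libraries with a peak summit within 2 kb and set apart vertically where counts tie. Tet1 has both TSSs at 5 and Tet3 reaches 46, the highest of the family.

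Beyond the promoters, the loci (gene body and 20 kb on either side, 910 kb in all) held 108 peaks: 40 in Ctrl1, 5 in Ctrl2, 24 in cKO1 and 39 in cKO2. Of these, 32 lay at promoters of the 10 genes and 40 at promoters of other genes. A further 26 lay within the genes, each with its summit in an intron, and 10 lay outside. The median density was 0.443, 0, 0.195 and 0.444 peaks per 10 kb in the order of the libraries. The medians over the loci of all protein-coding genes were 0.238, 0, 0.130 and 0.228. That background includes genes without a CGI promoter, and a density over CGI genes alone is not given.

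Kdm2a had an internal peak of lower depth than its promoter peak. At the promoter the scaled depth was 51.8 in Ctrl1, 17.8 in cKO1 and 50.9 in cKO2. The internal peak rested on 63 fragments in Ctrl1 (scaled depth 38.8), 30 in cKO1 (14.5) and 67 in cKO2 (37.1). It ranked 3055.5 of 46389, 3361.5 of 21404 and 2432 of 44535 peaks. The summits stood 22, 9 and 64 bp upstream of the TSS of a protein-coding transcript outside the basic set (position 4334001), and 63012 to 63067 bp into the gene from its nearest basic TSS. No CGI overlapped it.

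Outside Ctrl2, Cxxc5 had the densest locus, with 0.974 peaks per 10 kb in Ctrl1, 0.834 in cKO1 and 0.974 in cKO2. In Ctrl2, where Fbxl19 had 0.467, Cxxc5 had 0. An intronic peak 10622 to 10696 bp downstream of the TSS was stronger than its promoter in each of the 3 libraries, with 46 fragments in Ctrl1, 34 in cKO1 and 59 in cKO2, against 27, 16 and 27 at the promoter. Further peaks lay 14655 to 14873 bp upstream and 9727 to 9760 bp downstream in the same 3 libraries. A region with summits 13678 and 13726 bp upstream (chr18:35815525-35816367) had a peak in each cKO list and in no Ctrl list. It ranked 19925 of 21404 in cKO1, on 13 fragments, and 17984 of 44535 in cKO2, on 27 fragments.

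**Figure D5:**
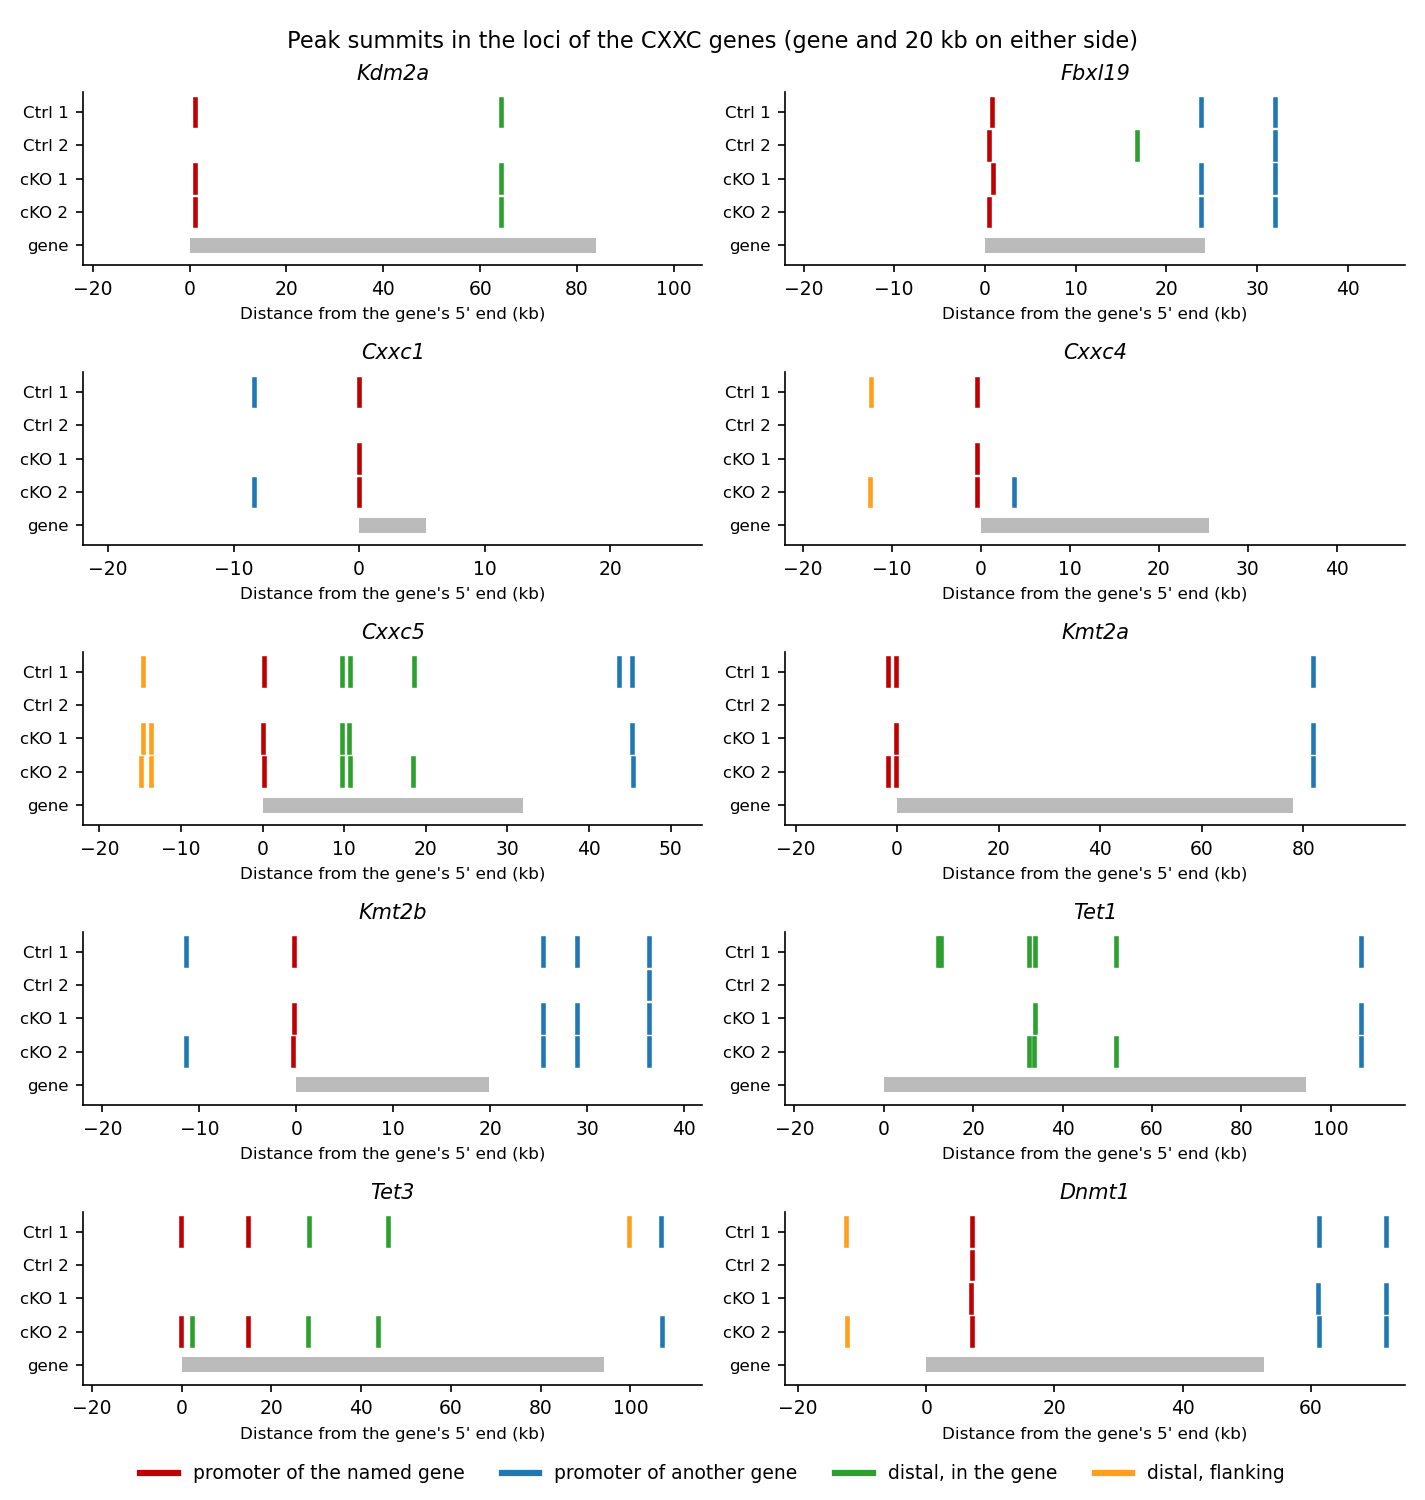
Peak summits in each library over the 10 loci, by distance in kb from the 5′ end of the gene (grey bar), coloured by whether the summit lies at a promoter of the gene, at a promoter of another gene, elsewhere in the gene or elsewhere in the flanks. Ctrl2 has 5 summits in all, and Tet3 has none in cKO1.

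Peaks that overlap by at least 1 bp merged into 45 regions. Of these, 1 (2.22%) came from the cKO pair of lists alone, the Cxxc5 region above, and 0 from the Ctrl pair alone. The Cxxc5 region was no longer such a region when shared peaks had to overlap by 50% of each, or in lists of equal size, where the cKO count was 0. Over the 58652 regions of the genome the shares were 0.692% and 0.305%. The most frequent pattern was Ctrl1 with both cKO lists, in 19 regions (42.2%, against 25.9% of the genome), then Ctrl1 with cKO2, in 12 (26.7%, against 27.1%). All 4 lists shared 4 regions (8.89%, against 5.56% of the genome): the promoters of Fbxl19 and Dnmt1, and those of Setd1a, near Fbxl19, whose product works with CXXC1, and Proser3, near Kmt2b. With an overlap of 50% of each peak, 2 regions were shared by all lists. CGIs in these loci numbered 32, of which 11 (34.4%) overlapped a peak in 3 libraries, 4 (12.5%) in all 4 and 11 (34.4%) in none. Over all 16176 CGIs the shares were 37.1%, 8.58% and 28.9%.

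Genes that work with the family were set beside it. The 14 partners (Setd1a, Setd1b, Wdr82, Ash2l, Rbbp5, Wdr5, Dpy30, Men1, Hcfc1, Uhrf1, Pcna, Ogt, Dvl1 and Skp1, named Skp1a in the annotation) each had a promoter peak in the 3 libraries, and Setd1a alone in Ctrl2. Over all protein-coding genes, the shares with a promoter peak were 58.0% in Ctrl1, 8.27% in Ctrl2, 40.3% in cKO1 and 55.9% in cKO2. Over CGI genes they were 87.2%, 13.5%, 63.5% and 84.9%. The median percentile of the partners was 75.1 in Ctrl1, 77.5 in cKO1 and 74.0 in cKO2. Over all coding genes with a promoter peak in the library it was 71.0, 79.9 and 72.1. Both cKO percentiles were above both Ctrl percentiles in 2 of the 14, Hcfc1 and Skp1a, and below in 0, against 20.5% and 2.8% of all genes. Mbd1, which also has CXXC fingers, was at 90.3 in Ctrl1, 85.2 in cKO1 and 85.6 in cKO2, with no peak in Ctrl2. The groups thus overlapped, and both cKO values lay below Ctrl1, as in 36.6% of all genes.

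Tet2, whose ancestral CXXC part became the separate gene Cxxc4, was at 78.7 in Ctrl1, 89.0 in cKO1 and 87.9 in cKO2, with no peak in Ctrl2. In cKO1 its promoter had a peak and that of Tet3 had none. Kdm2b itself was at 68.5, 74.9 and 70.7 in the same order, also with no peak in Ctrl2. The protein-coding genes whose percentiles over the 4 libraries were closest to the median profile of the family were Nrxn2, Ssu72 and Stx7, at Euclidean distances of 1.08, 1.12 and 1.15 percentile points.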

How the data were processed

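ATAC-seq of P0 hippocampus gave 1 peak list per library, 2 cKO and 2 Ctrl, grouped by sample title. Per the study's methods and the submitters' processing notes, reads were trimmed with Cutadapt, aligned to mm10 with Bowtie2, cleared of blacklist, mitochondrial and duplicate reads, shifted for the Tn5 offset, and peaks were called per library with MACS2 2.2.7.1, without a control and without pooling. The removal of duplicates and blacklist regions may lower the depth behind a peak, which was not measured here. The authors deposited a fold enrichment at the summit (a ratio of depth to local background), −log10 p-values and −log10 q-values from a Poisson test, a display score, which was not used, and the summit offset.

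Peaks were matched to the GENCODE M21 basic annotation on GRCm38.p6, 1-based. Whole fragments at summits were recovered from the deposited fold and p-value (within 0.01 of −log10 p for at least 99.9858% of peaks in each list), and scaled depth divided them by the lowest background of the list, used as the genome-wide mean depth. A scan of the unmasked sequence gave 16176 CGIs of 200 bp or longer, with 50% GC or more and a CpG ratio, observed to expected, of 0.6 or more. Groups were compared by the difference of means with an exact two-sided permutation test, adjusted by Benjamini-Hochberg over the 10 genes. The recovery and the promoter assignment were tested on simulated data. The genes described are all 10 members in every library, Kdm2b, Mbd1 and Tet2, the list of partners, and the 3 genes nearest to the median profile. A further gene list is not reported here. Members and lists were chosen with earlier results of these data known. Python 3.11.15 with numpy 2.4.6, pandas 2.3.3, scipy 1.17.1 and pysam 0.24.0 was used. Alternatives covered the promoter width, peak assignment, q-value, list size, ranking, transcripts, repeats, locus width, merging, island criteria and each library left out.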

Additional observations from a re-analysis of the deposited data

How the results depend on the processing

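The alternative with all GENCODE transcripts, and the settings tried on the count of genes with separated groups, were chosen after seeing the data. Differences are cKO minus Ctrl. With all 4 libraries kept, the difference for Fbxl19 turned from −3.61 to 5.44 with percentiles among all peaks and to 4.27 in scaled depth, and that for Dnmt1 turned from −5.08 to 41.9 at a −log10 q of at least 5, to 17.5 among all peaks and to 3.76 in scaled depth. The causes were not tested. For Tet1 the difference of 0 became 40.8 with all transcripts and −7.46 when genes lacking a peak shared a mid-rank, and for Cxxc5 and Tet3 it became 0 in equal-size lists of 7037 peaks, where neither gene kept a promoter peak. Equal-size lists also took Cxxc4 from 42.2 to 6.37 and Dnmt1 to −44.4. Mid-ranks gave 23.8 for Kdm2a, 24.5 for Cxxc1, 19.3 for Cxxc4, 18.4 for Kmt2a, 18.8 for Kmt2b, 9.91 for Cxxc5 and −12.2 for Tet3. Cxxc5 was at 0.58 at a −log10 q of at least 5 and at 8.92 among all peaks, where Tet3 was at −13.4. The mean over the 10 genes went from 23.9 to 13.6 in equal-size lists and 8.64 with mid-ranks. The count of 4 genes above both Ctrl libraries was 0 in scaled depth, against both Ctrl libraries or Ctrl replicate 1 alone, and 0 with percentiles among all peaks, and it was 3 to 5 under the other settings. The mean difference in genes with a promoter peak went from 3 to 1.5 in equal-size lists, and that in peaks of the loci from 9 to 3.5 in equal-size lists and 3.5 in gene bodies alone. Merged regions numbered 16 in equal-size lists, with 0 held by both cKO lists alone. The pattern of Ctrl replicate 1 with both cKO lists went from 19 regions to 7 there. That of Ctrl replicate 1 with cKO replicate 2 went from 12 to 1. When shared peaks had to overlap by 50% of each, 2 regions were held by all 4 lists and 0 by both cKO lists alone.

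Leaving out each library in turn, the difference ranged from −2.01 to 49.9 in the mean percentile, from −0.5 to 6.5 genes with a promoter peak and from −8.5 to 26.5 peaks in the loci. The lowest of each came without Ctrl replicate 2. It ranged from −7.61 to 0.385 for Fbxl19, −1.42 to 84.1 for Kmt2a, −35.8 to 27.4 for Tet3 and −11.6 to 1.42 for Dnmt1. Without Ctrl replicate 2 it kept its sign for Kdm2a, Cxxc1, Cxxc4, Cxxc5 and Kmt2b but was at most 4.86. With the replicate number as a block the mean difference is the same 23.9, and no exact paired p for a gene was below 0.5, the smallest that 2 pairs allow. The deviations of samples of the same number had a correlation of 0.053 over 13196 genes. With 2 libraries per group, crossed numbers give the same value with the opposite sign (−0.053). This value therefore cannot decide whether the numbers pair the samples. No exact p was below 0.333, so the p-values say nothing about stability. Peaks of Ctrl replicate 2 rested on at least 12 fragments, and weaker openings were not detectable there. The limit may be higher at sites with more local background.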
